A study of Mus musculus with 12 samples.

Results

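The genes described here encode the proteins of the cytosolic ribosome, the particle that translates messenger RNA outside the mitochondria. A gene was counted as a member when a probe set of the array carried exactly 1 gene symbol and that symbol followed the naming pattern of ribosomal proteins (Rpl or Rps with a number, or Rplp0, Rplp1, Rplp2 and Rpsa), with the Rps6k kinases and pseudogenes left out. This gave 61 of the 19937 genes tested, 38 of the large subunit and 23 of the small subunit, each followed through its probe set with the highest mean over all arrays. Levels come from white adipose tissue of male mice 18 weeks of age. In all, 12 Affymetrix whole-transcript arrays fell into 4 groups of 3: Ahnak knockout (KO) mice on a high fat diet (HFD), wild-type (WT) mice on HFD, KO mice on regular chow and WT mice on regular chow. HFD held 60% fat, 20% carbohydrate and 20% protein and was fed for 12 weeks, to groups matched by weight. Ahnak encodes a very large scaffold protein of the plasma membrane. The labels give neither the fat depot nor the construction of the knockout allele, and they do not state whether the 3 arrays of a group are of different animals. All p-values therefore reflect the spread among these arrays alone.

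A ribosome is built from a large and a small subunit, each made of ribosomal RNA and of many different proteins that are needed in equal numbers. Messenger RNAs for these proteins are abundant in nearly every cell, and in mammals most of them begin with a C followed by a run of pyrimidines, the 5′ terminal oligopyrimidine (TOP) tract, through which the mTOR pathway controls how strongly they are translated. In adipose tissue, feeding and insulin act on this pathway, and their effect on translation need not appear in the amount of messenger RNA that an array measures.

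The sequence around the transcription start was searched for this pyrimidine start, which stood at the listed start in a minority of the members. RefSeq promoters (assembly GRCm38.p6) were given for 49 of the 61 members. A C at the listed start followed by at least 4 pyrimidines stood in 10 of those 49 promoters (20.4%), against 467 of 17491 promoters of all genes (2.67%). The letters CTTTTC or CTTTCC stood on the coding strand between 30 bases before and 50 bases after the listed start in 18 of 49 members (36.7%), against 6.88% of all promoters. The letters CCGGAAG, on either strand within 300 bases, stood in 19 of 49 members (38.8%), against 12.9%. The letters AAGATGGCG, searched in the same way, stood in 1 of 49 (2.04%), against 2.14%. The listed start is that of 1 transcript per gene, and a match is a description of these letters only. The windows below run from 35 bases before to 15 bases from the start onward, on the gene's own strand, with the pyrimidines from the start onward in capitals. Rps6, Rps10 and Rpl38 are shown as members with many such pyrimidines, and Rplp2 and Rpl12 because they were the members that passed a test in the comparisons described here.
Rps6, chr4:86857353-86857402, minus strand: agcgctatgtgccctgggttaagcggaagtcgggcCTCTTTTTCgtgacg
Rps10, chr17:27635230-27635279, minus strand: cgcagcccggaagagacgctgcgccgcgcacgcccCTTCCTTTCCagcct
Rpl38, chr11:114668545-114668594, plus strand: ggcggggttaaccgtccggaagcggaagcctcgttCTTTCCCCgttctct
Rplp2, chr7:141447616-141447665, plus strand: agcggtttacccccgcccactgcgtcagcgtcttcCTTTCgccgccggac
Rpl12, chr2:32961677-32961726, plus strand: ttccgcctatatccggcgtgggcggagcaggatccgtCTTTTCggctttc
In Rps6, Rps10, Rpl38 and Rplp2 the capitals begin at the listed start, and pyrimidines also stand directly before it. In Rpl12 the listed start is a G and the capitals begin at the first C after it.

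Levels are given as the log2 intensities deposited by the authors, and a difference is the difference of 2 group means on that scale with its standard error (SE) from a linear model in limma. A gene passed when its Benjamini-Hochberg adjusted p over all 19937 genes was under 0.05. Ahnak itself had levels of 9.58, 9.40 and 9.45 in KO mice on HFD, against 10.27, 9.68 and 10.04 in WT mice on HFD, and of 9.31, 9.27 and 9.42 in KO mice on chow, against 9.94, 10.06 and 10.08 in WT mice on chow. The KO arrays were below the WT arrays on both diets, by -0.52 ± 0.13 on HFD (adjusted p 0.021) and -0.69 ± 0.13 on chow (adjusted p 0.38), and whether the probes lie in the deleted part is not known here. The adipocyte hormone gene Adipoq lay between 12.45 and 13.33 on all 12 arrays, but other adipocyte genes differed more. Of 12 adipocyte genes, 6 passed as higher and 1 as lower in KO than in WT mice on HFD (6.65% and 6.85% of all genes). With HFD against chow, 1 passed as higher and 6 as lower in WT mice (11.8% and 12.3% of all genes). In KO mice 1 passed as higher and 0 as lower (2.8% and 3.54%). The 15 macrophage markers, summed per array, reached a log2 level of 13.71 to 13.80 in KO mice on HFD, 14.60 to 15.82 in WT mice on HFD, 13.36 to 13.65 in KO mice on chow and 13.62 to 13.98 in WT mice on chow. Of these 15 markers, 11 passed as lower in KO than in WT mice on HFD, against 6.85% of all genes. With HFD against chow, 13 passed as higher in WT mice (11.8% of all genes) and 1 in KO mice (2.8%). In KO mice the difference with HFD was above 0 for 14 of the 15 markers, with a median of 0.38. All 9 measured cell cycle genes passed as lower in KO than in WT mice on HFD and as higher with HFD than with chow in WT mice. In whole tissue, fewer cells of a type and less RNA per cell cannot be told apart.

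Few ribosomal protein genes passed a test between the groups. Between KO and WT mice on HFD, 1 of the 61 members was higher (Rpl12) and 0 were lower by the limma test, whereas 13.5% of all genes passed, 6.65% higher and 6.85% lower. With unadjusted p under 0.05 there were 3 members, against 26.8% of all genes. Between KO and WT mice on chow 0 members passed, as did 0% of all genes, and 1 member and 5.6% of all genes had an unadjusted p under 0.05. HFD against chow in WT mice gave 0 members higher and 1 lower (Rplp2), whereas 24.1% of all genes passed, 11.8% higher and 12.3% lower. With the arrays shifted to the same median this became 3 members higher (Rpl12, Rpl7l1 and Rpl34, the last named after its value was seen) and 0 lower. The same comparison in KO mice gave 1 member higher (Rpl12) and 0 lower, whereas 6.34% of all genes passed, 2.8% higher and 3.54% lower. In each of these diet comparisons 7 members had an unadjusted p under 0.05, against 35.2% of all genes in WT mice and 22.8% in KO mice. The interaction, which asks whether the diet difference itself was unlike in KO and WT mice, gave 0 members, against 0.00502% of all genes, and 2 members had an unadjusted p under 0.05, against 17.5% of all genes. Comparisons that share a group share its 3 arrays and are not independent.

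The intervals say how large a difference the spread among the arrays leaves possible for the values as deposited. They do not cover the choice of normalization. The 95% interval of the difference between KO and WT mice on HFD stayed within 1.5-fold either way for 60 of the 61 members, Rpl12 being the exception, and for 78.7% of all genes. On chow it did so for 61 of 61 members, against 89.6% of all genes. For HFD against chow it did so for 60 members in WT mice (the exception was Rps27l), against 74.5% of all genes. In KO mice it did so for 56 members, against 82.0%, and the exceptions were Rpl12, Rpl29, Rpl30, Rpl7a and Rps27l. The 38 members with a mean level over 10 were all within 1.5-fold in these comparisons and in the interaction. Among all 1706 genes with such a mean, 73.4% were so for genotype on HFD, 91.3% for genotype on chow, 70.3% for diet in WT mice, 83.5% for diet in KO mice and 64.4% for the interaction.

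**Figure D1:**
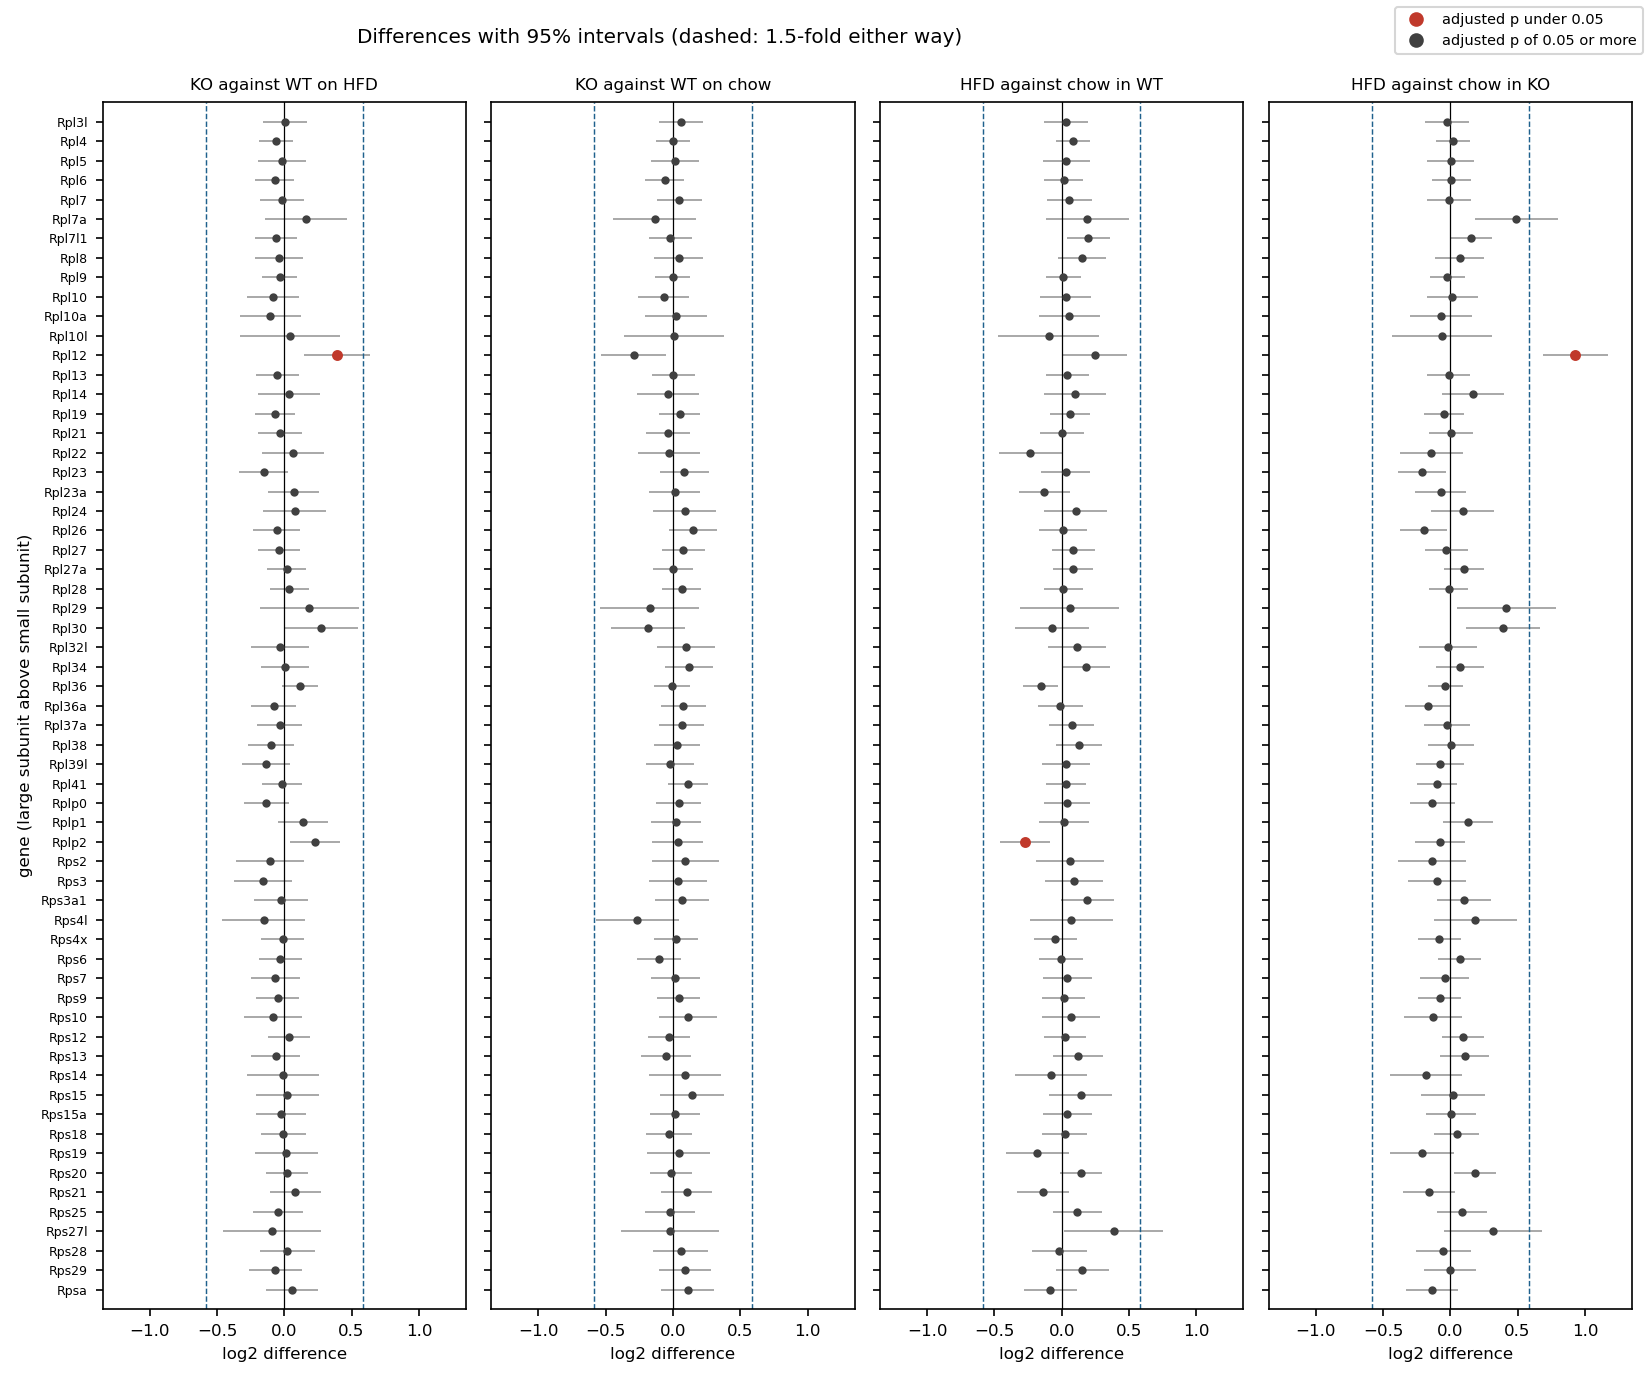
Differences of the 61 ribosomal protein genes in 4 comparisons, as log2 difference (horizontal axis) with its 95% interval for each gene (vertical axis); dashed lines mark 1.5-fold either way and red points an adjusted p under 0.05. Rpl12 passed in KO against WT on HFD and in HFD against chow in KO, Rplp2 in HFD against chow in WT, and most intervals lie between the dashed lines.

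The medians of the members lay between -0.03 and 0.04 in the pairwise comparisons. The median difference between KO and WT mice on HFD was -0.03 for the members and 0.02 for all genes, with 23 of 61 members above 0. On chow it was 0.02 for the members and 0.01 for all genes, with 40 above 0. HFD against chow gave 0.04 for the members and -0.03 for all genes in WT mice, with 47 members above 0, and -0.01 for both in KO mice, with 28 members above 0. With the arrays shifted to the same median, the median for HFD against chow was 0.14 in WT mice and 0.06 in KO mice. Large and small subunit genes had nearly the same medians, -0.02 and -0.03 between KO and WT mice on HFD and 0.04 each for HFD against chow in WT mice. The members also varied little from array to array: the median SD over the 12 arrays was 0.10 for the 61 members and 0.15 for all genes, and 50 members (82.0%), against 47.9% of all genes, spanned less than 0.5 log2 units from the lowest to the highest array.

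The stalk of the large subunit, which recruits the translation factors that hydrolyse GTP, is made of the base protein Rplp0 and of Rplp1 and Rplp2, and Rpl12 binds beside it. Rpl12 had levels of 6.23, 5.99 and 6.19 in KO mice on HFD, against 5.71, 5.72 and 5.80 in WT mice on HFD. On chow its levels were 5.41, 5.12 and 5.10 in KO mice, against 5.37, 5.43 and 5.70 in WT mice. The 3 KO arrays on HFD were higher than all other arrays, and on chow the groups overlapped. Rpl12 was 0.39 ± 0.11 higher in KO than in WT mice on HFD (SE, n = 3 arrays each, limma adjusted p 0.038) and 0.93 ± 0.11 higher with HFD than with chow in KO mice (adjusted p 0.0042). It did not pass between KO and WT mice on chow, where the difference was -0.29 ± 0.11 (adjusted p 0.81), or for diet in WT mice, where it was 0.25 ± 0.11 (adjusted p 0.14). The interaction was 0.68 ± 0.16 (adjusted p 0.090) and passed without replicate 1 of WT on HFD (adjusted p 0.033). The call between KO and WT mice on HFD was lost when only those 2 groups entered the fit (adjusted p 0.067) and when any of several single arrays was left out: replicates 1 or 3 of KO on HFD, any replicate of WT on HFD or replicate 2 of WT on chow.

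Rplp2 had levels of 5.66, 5.55 and 5.73 in WT mice on HFD, against 5.91, 6.07 and 5.78 in WT mice on chow. In KO mice it had 5.81, 5.83 and 5.99 on HFD, against 5.99, 5.92 and 5.95 on chow. All WT arrays on HFD were below the other arrays, and the KO arrays on both diets overlapped. Rplp2 fell by 0.27 with HFD in WT mice (log2 difference -0.27 ± 0.09, adjusted p 0.039), and its difference in KO mice was -0.08 ± 0.09 (adjusted p 0.64). Between KO and WT mice on HFD the difference was 0.23 ± 0.09 (adjusted p 0.10), and the interaction was 0.19 ± 0.12 (adjusted p 0.45). The call did not hold without any 1 of the 3 WT arrays on HFD, without replicate 1 or 2 of WT on chow or without replicate 3 of KO on chow, and it was lost after quantile normalization, where the difference was -0.18. The WT arrays on HFD on which Rplp2 was low were also those with the highest macrophage sums, and the part of these markers in the result was not tested. The probe sets that stand for Rpl12 and Rplp2 list cDNA clones and no RefSeq transcript, as does that of Rps3a1, while those of the other 58 members list one.

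**Figure D2:**
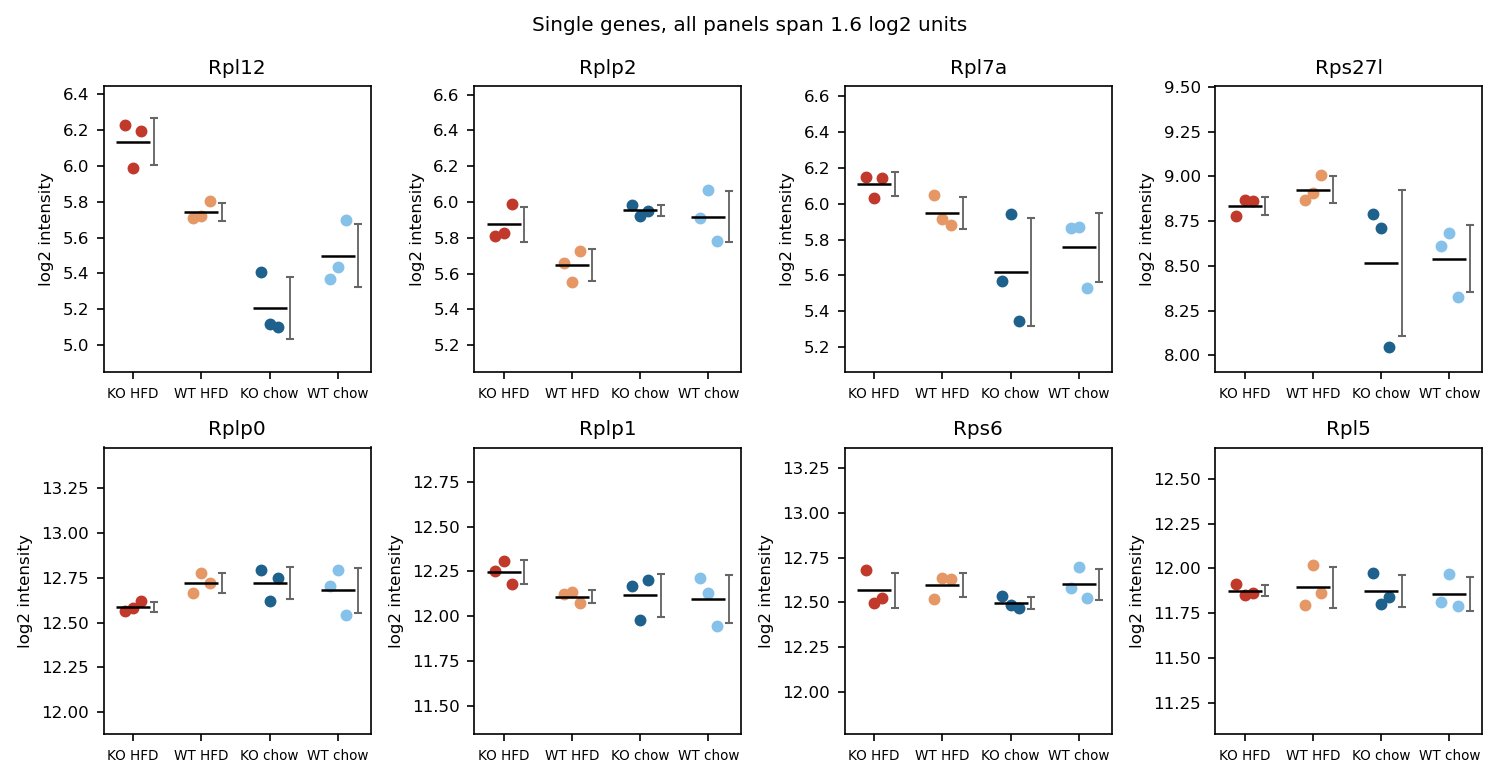
Log2 intensity (vertical axis) of 8 members in the 4 groups (horizontal axis); points are arrays, black lines are means and grey bars are the SD of 3 arrays. Rpl12 was higher in KO mice on HFD than on any other array and Rplp2 lower in WT mice on HFD, while Rps6 and Rpl5 overlapped between all groups.

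The other stalk genes were measured by brighter probe sets. Rplp0 had levels of 12.57, 12.58 and 12.62 in KO mice on HFD, against 12.67, 12.77 and 12.72 in WT mice on HFD, and Rplp1 had 12.25, 12.31 and 12.18 in KO mice, against 12.12, 12.14 and 12.07 in WT mice. The groups did not overlap for either gene, and the order was opposite. Neither passed the test: the difference was -0.13 ± 0.08 for Rplp0 (adjusted p 0.32) and 0.14 ± 0.08 for Rplp1 (adjusted p 0.35). On HFD the KO arrays all lay above the WT arrays for 6 members (Rpl12, Rpl30, Rpl36, Rplp1, Rplp2 and Rps21), against 17.4% of all genes, and below them for 3 (Rpl21, Rpl4 and Rplp0), against 13.5%, which makes 30.9% of all genes in either direction. On chow the KO arrays lay above the WT arrays for 1 member, Rpl41, the shortest protein of the large subunit, against 5.79% of all genes, and below them for 0 members, against 5.74% (11.5% in either direction). Rpl41 had levels of 11.96, 11.84 and 11.79 in KO mice on chow, against 11.73, 11.78 and 11.73 in WT mice on chow, a difference of 0.11 ± 0.07 (adjusted p 0.93).

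Rpl5 carries the 5S RNA into the large subunit and, outside the ribosome, binds the p53 regulator Mdm2. Its levels were 11.91, 11.85 and 11.86 in KO mice on HFD, 11.80, 12.02 and 11.86 in WT mice on HFD, 11.98, 11.80 and 11.84 in KO mice on chow and 11.81, 11.97 and 11.79 in WT mice on chow. All 4 groups overlapped, and the 95% interval between KO and WT mice on HFD ran from -0.19 to 0.16. Rpl23 and Rpl26 can bind Mdm2 as well, and Rpl26 lies at the exit tunnel. Rpl23 had 11.53, 11.41 and 11.45 in KO mice on HFD, against 11.72, 11.57 and 11.72 in KO mice on chow. Rpl26 had 8.13, 8.0 and 8.06 in KO mice on HFD, against 8.40, 8.16 and 8.22 in KO mice on chow. Levels on HFD were below those on chow for both genes, with no overlap. Their differences were -0.21 ± 0.08 (adjusted p 0.16) and -0.20 ± 0.08 (adjusted p 0.17), so neither passed. Around the tunnel through which the new protein leaves, Rpl19 differed by -0.07 ± 0.07 and Rpl23a by 0.07 ± 0.09 between KO and WT mice on HFD. Rpl10, which joins the large subunit late and lies near the tRNA in the P site, differed by -0.08 ± 0.09, and Rpl24, which forms a bridge between the subunits, by 0.08 ± 0.11. None of these 4 passed in any comparison by the probe set with the highest mean. A further probe set of Rpl19 was 0.46 higher with HFD in WT mice (limma adjusted p 0.013 over all probe sets).

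Rps6, the small subunit protein that S6 kinase phosphorylates downstream of mTOR, had levels of 12.68, 12.50 and 12.52 in KO mice on HFD, against 12.52, 12.64 and 12.63 in WT mice on HFD. On chow it had 12.54, 12.48 and 12.47 in KO mice, against 12.58, 12.69 and 12.52 in WT mice. The groups overlapped in each comparison. Its difference was -0.03 ± 0.07 between KO and WT mice on HFD, with a 95% interval from -0.19 to 0.13, and 0.00 ± 0.07 for HFD against chow in WT mice, with an interval from -0.16 to 0.16. The array measures its messenger RNA and says nothing of its phosphorylation.

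At the mRNA entry side and in the head of the small subunit, Rps2, Rps3, Rps10, Rps20 and Rps29 did not pass in any comparison. Rps3, which lines the entry channel, had levels of 11.15, 11.07 and 10.98 in KO mice on HFD, against 11.10, 11.38 and 11.19 in WT mice on HFD, and the difference was -0.16 ± 0.10 (adjusted p 0.36). Rps20 lay higher on every HFD array than on every chow array in both genotypes. It had 10.76, 10.69 and 10.76 in KO mice on HFD, against 10.63, 10.54 and 10.50 in KO mice on chow, and 10.66, 10.83 and 10.67 in WT mice on HFD, against 10.51, 10.65 and 10.56 in WT mice on chow. The differences were 0.18 ± 0.07 in KO mice (adjusted p 0.16) and 0.15 ± 0.07 in WT mice (adjusted p 0.17). Differences between KO and WT mice on HFD were -0.11 ± 0.11 for Rps2, -0.09 ± 0.10 for Rps10 and -0.07 ± 0.09 for Rps29. At the platform, where mRNA leaves, they were 0.06 ± 0.09 for Rpsa, which is also known as a laminin receptor, -0.01 ± 0.12 for Rps14 and 0.02 ± 0.09 for Rps28. None of these passed.

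Paralogs are second copies of ribosomal protein genes, several of them with restricted expression. Rps27l, a paralog of Rps27 that p53 induces, had levels of 8.87, 8.91 and 9.01 in WT mice on HFD, against 8.61, 8.68 and 8.33 in WT mice on chow. In KO mice it had 8.78, 8.87 and 8.86 on HFD, against 8.79, 8.71 and 8.05 on chow. The WT groups did not overlap, whereas 1 KO array on chow lay within the KO values on HFD. Its difference with HFD was 0.39 ± 0.17 in WT mice (adjusted p 0.12) and 0.32 ± 0.17 in KO mice (adjusted p 0.29). The low array, replicate 3 of KO on chow, widened the shared spread: without it the difference in WT mice passed (adjusted p 0.015).

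Rpl7l1, a paralog of Rpl7, had levels of 9.80, 9.90 and 9.84 in WT mice on HFD, against 9.65, 9.77 and 9.53 in WT mice on chow, and 9.74, 9.82 and 9.81 in KO mice on HFD, against 9.59, 9.63 and 9.69 in KO mice on chow. Every HFD array was above every chow array of its genotype. The difference was 0.20 ± 0.07 in WT mice (adjusted p 0.072), which passed without replicate 2 of WT on chow (adjusted p 0.036) and with the arrays shifted to the same median (adjusted p 0.023), and 0.15 ± 0.07 in KO mice (adjusted p 0.24). The paralogs Rpl3l, of striated muscle, and Rpl10l and Rpl39l, of the testis, stayed between 3.31 and 5.28 on all 12 arrays and passed in no comparison. Rps4l, whose difference between KO and WT mice on chow was -0.27 ± 0.14 (adjusted p 0.91), spanned 7.67 to 8.42 over the 12 arrays.

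Other members with a large difference for HFD against chow in KO mice were Rpl7a, Rpl29 and Rpl30, proteins of the large subunit. Rpl7a had levels of 6.15, 6.03 and 6.15 in KO mice on HFD, against 5.57, 5.95 and 5.34 in KO mice on chow (0.49 ± 0.14, adjusted p 0.062). Rpl30 had 7.97, 7.45 and 7.57 in KO mice on HFD, against 7.40, 7.30 and 7.13 in KO mice on chow (0.39 ± 0.13, adjusted p 0.089). Rpl29 had 7.31, 7.25 and 7.45 in KO mice on HFD, against 7.11, 7.08 and 6.58 in KO mice on chow (0.42 ± 0.17, adjusted p 0.17). The groups did not overlap for any of these 3 genes, and each spread widely within a group. In WT mice the differences with HFD were 0.19 ± 0.14 for Rpl7a, -0.07 ± 0.13 for Rpl30 and 0.06 ± 0.17 for Rpl29. The interaction was 0.46 ± 0.18 for Rpl30 (adjusted p 0.22), the other member beside Rpl12 with an unadjusted p under 0.05. At the opposite end, Rpl9 lay between 13.45 and 13.60 on all 12 arrays, and its differences between KO and WT mice on HFD and for HFD against chow in WT mice were -0.03 ± 0.06 and 0.01 ± 0.06.

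In WT mice the arrays on HFD did not overlap those on chow for 7 higher members (Rpl12, Rpl27a, Rpl4, Rpl7a, Rpl7l1, Rps20 and Rps27l), against 17.3% of all genes, and for 3 lower members (Rpl22, Rpl36 and Rplp2), against 21.6% (38.8% in either direction). In KO mice 6 were higher (Rpl12, Rpl29, Rpl30, Rpl7a, Rpl7l1 and Rps20), against 15.1% of all genes, and 5 lower (Rpl23, Rpl26, Rpl36a, Rplp0 and Rps19), against 13.7% (28.8% in either direction).

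Within each group the members moved together from array to array. In WT mice on HFD, 52 of the 61 members lay above their own group mean on replicate 2, 11 did so on replicate 1 and 23 on replicate 3. In KO mice on HFD the counts for replicates 1, 2 and 3 were 43, 15 and 33. On chow they were 52, 19 and 17 in KO mice and 24, 54 and 9 in WT mice. In each group 1 array stood highest, with 43 to 54 members above the mean. Among the 38 members with a mean level over 10 the split was wider: 36 of 38 were above their group mean on replicate 2 of WT on HFD and 3 of 38 on replicate 3 of WT on chow. Among all 1706 genes with such a mean, the share above the group mean lay between 37.1% and 62.1% on each array. The shifts were small, since the median deviation of the members from their group mean lay between -0.07 and 0.08 log2 units on each array.

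Rps2 went the other way, except in KO mice on chow. It had 12.19, 12.50 and 12.23 in KO mice on HFD, 12.51, 12.24 and 12.49 in WT mice on HFD, 12.46, 12.41 and 12.46 in KO mice on chow and 12.51, 12.15 and 12.38 in WT mice on chow. It was low on replicate 1 of KO on HFD and on replicate 2 of WT on either diet, where most members were high. On replicate 1 of KO on chow most members were high as well, and Rps2 was not low there. In WT mice on HFD the macrophage sums of replicates 1, 2 and 3 were 14.60, 15.82 and 15.43, so the array with the most members above the mean was also the one with the highest sum. In WT mice on chow they were 13.98, 13.62 and 13.74, and the array with the most members above the mean had the lowest sum. The part of the macrophage markers in these shifts was not tested.

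**Figure D3:**
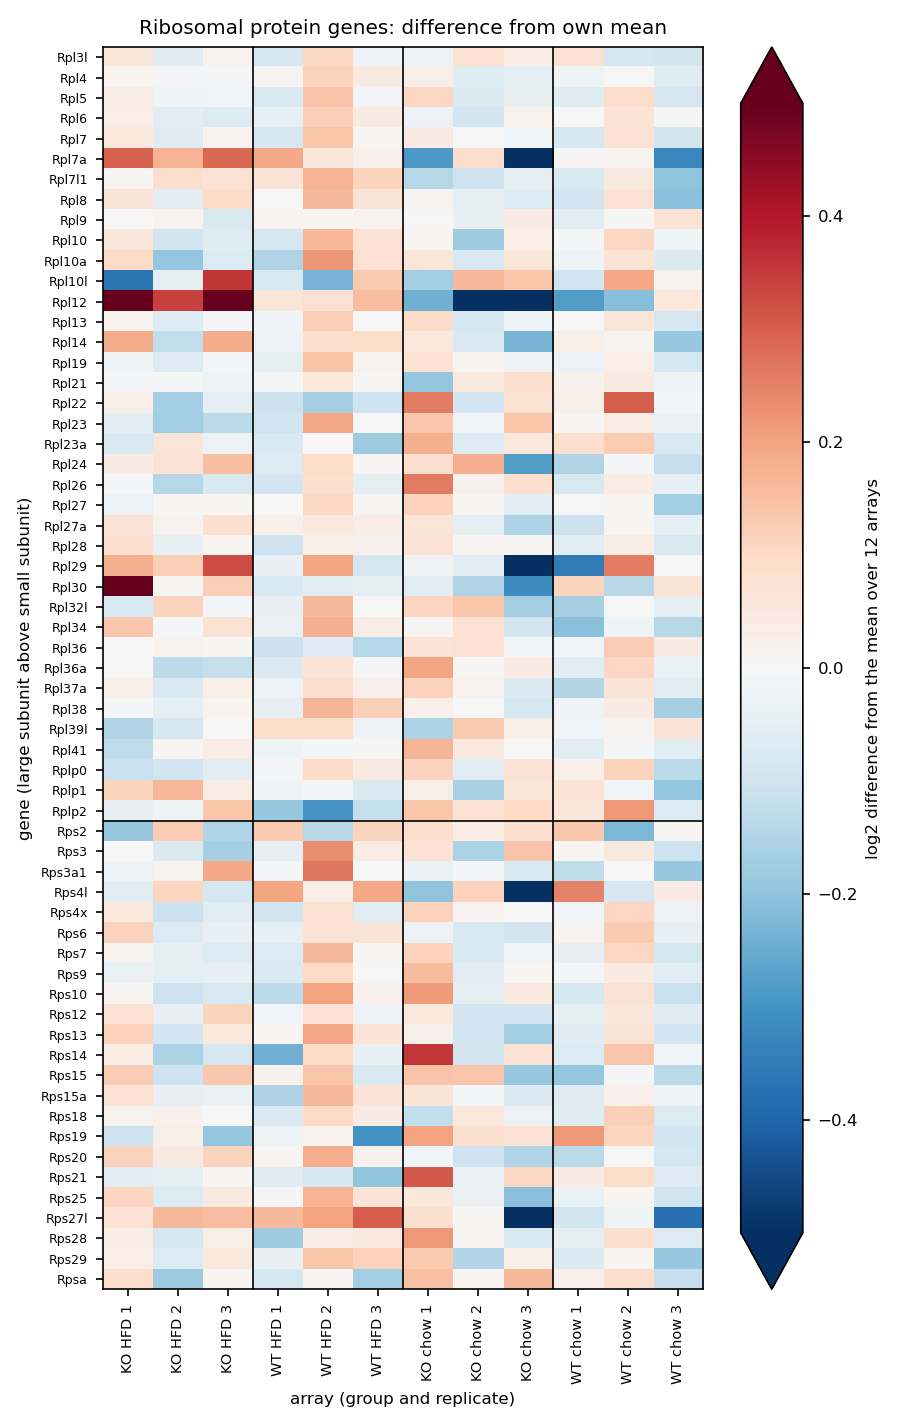
Log2 difference of each of the 61 members (rows) from its own mean over the 12 arrays (columns, with lines between the 4 groups), red above and blue below that mean. Most columns are pale and of 1 colour over many genes, as in replicate 2 of WT on HFD and of WT on chow, while Rpl12 is red in KO on HFD and mostly blue on chow.

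**Figure D4:**
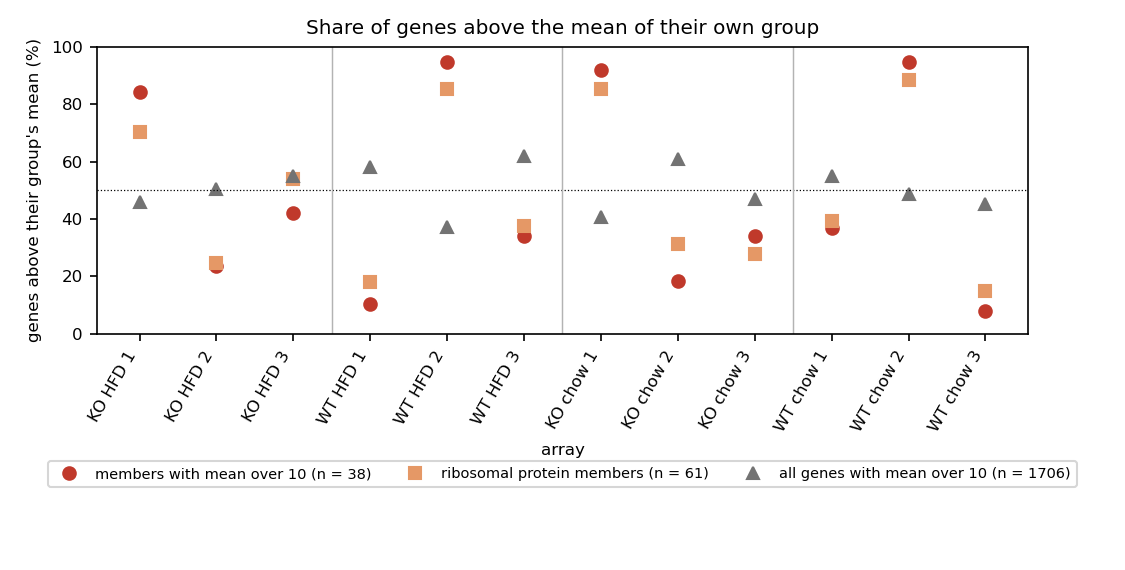
Share of genes above the mean of their own group (vertical axis, in percent) on each array (horizontal axis), for the 38 members with a mean level over 10, all 61 members and all 1706 genes with such a mean. The members range widely, with 36 of the 38 above the mean on replicate 2 of WT on HFD, and the 1706 genes stay between 37.1% and 62.1%.

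Several members had more than 1 probe set, and these did not always move to the same side. The 61 members had 193 probe sets of their own, and 38 members had more than 1, up to 10. The difference had opposite signs between probe sets of the same gene for 21 of these 38 members between KO and WT mice on HFD and for 25 of 38 for HFD against chow in WT mice. Tested over all probe sets of the array, 0 of the 193 passed between KO and WT mice on HFD, against 6.46% of all 34760. For HFD against chow 5 passed in WT mice, against 13.97%, and 1 in KO mice, that of Rpl12, against 2.41%. The 5 were further probe sets of Rpl13 (0.39), Rpl19 (0.46) and Rpl27 (0.55), which were higher with HFD, and of Rpl36 (-0.23) and Rps12 (-0.39), which were lower. Ribosomal protein genes have many processed pseudogenes of near-identical sequence, so a probe set may also measure a copy. Another 209 probe sets list a ribosomal protein symbol among several symbols, and 18 genes that follow the naming pattern, Rpl3 and Rpl11 among them, are listed only there and are not among the members.

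Genes that build the ribosome or work with it were described from fixed lists, each count beside the share of all genes that passed in the same direction. Of 31 measured ribosome assembly factors, 10 rose with HFD in WT mice (11.8% of all genes) and 0 fell (12.3%), among them Utp20 (0.58 ± 0.09) and Rrp12 (0.49 ± 0.10), both of which act in processing the ribosomal RNA. In KO mice 4 rose (2.8%) and 0 fell (3.54%), with Tsr1 (0.55 ± 0.10) and Grwd1 (0.36 ± 0.07) first by p. Between KO and WT mice on HFD 1 was higher (6.65%), Dkc1 (0.50 ± 0.12), and 4 were lower (6.85%), among them Nhp2 (-0.37 ± 0.08) and Utp20 (-0.38 ± 0.09). Dkc1 and Nhp2 belong to the same particle, which modifies uridines of ribosomal RNA. KO against WT on HFD and HFD against chow in WT mice share the WT arrays on HFD, on which the macrophage and cell cycle markers were also high, and the part of those markers was not tested. The medians of the 31 genes were -0.11 between KO and WT mice on HFD, 0.14 for HFD against chow in WT mice and 0.13 in KO mice. For RNA polymerase I, which makes the ribosomal RNA, 1 of 12 genes rose with HFD in WT mice (11.8%), Ttf1 (0.25 ± 0.08). In the same comparison 2 fell (12.3%), Ubtf (-0.25 ± 0.07) and Polr1c (-0.25 ± 0.08). These 3 of 12 are near the 24.1% of all genes that passed for HFD against chow in WT mice. In the other pairwise comparisons 0 passed by limma. An unadjusted p under 0.05 was found for 3 of the 12 between KO and WT mice on HFD (26.8% of all genes). On chow it was found for 2 (5.6%), and for diet in KO mice for 5 (22.8%).

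Among 24 initiation factors, Eif4a2, a helicase that opens the mRNA for the small subunit, was 0.70 ± 0.12 higher in KO than in WT mice on HFD. It was the 1 gene of the list to pass there, where 6.65% of all genes passed as higher and 6.85% as lower. It had levels of 11.60, 11.52 and 11.72 in KO mice on HFD, against 11.20, 10.62 and 10.92 in WT mice on HFD. With HFD in WT mice 3 initiation factors rose (11.8% of all genes), Eif2s2 (0.35 ± 0.09) and Eif5b (0.24 ± 0.06) first by p. In the same comparison 2 fell (12.3%), Eif3l (-0.28 ± 0.07) and Eif4h (-0.16 ± 0.05). Together these were 5 of 24, against 24.1% of all genes. Of 6 elongation factors, 1 was lower in KO than in WT mice on HFD (6.85% of all genes). With HFD, 2 rose in WT mice (11.8%) and 1 in KO mice (2.8%). Eef1e1, which in mammals is part of the aminoacyl tRNA synthetase complex, was lower in KO than in WT mice on HFD (-0.39 ± 0.08). It rose with HFD in WT mice (0.58 ± 0.08) and in KO mice (0.31 ± 0.08). Eif5a also rose with HFD in WT mice (0.28 ± 0.09). Eef1a1, Eef1b2, Eef1d and Eef2 passed in no comparison. Of 8 other ribosome components and TOP genes, 2 rose with HFD in WT mice (11.8% of all genes) and 1 in KO mice (2.8%). Between KO and WT mice on HFD 1 was lower (6.85%). Nap1l1 rose with HFD in both genotypes. It had 10.64, 10.66 and 10.75 in KO mice on HFD, against 9.85, 9.88 and 10.04 in KO mice on chow (0.75 ± 0.07), and the difference in WT mice was 0.42 ± 0.07. Vim, an intermediate filament gene, was lower in KO than in WT mice on HFD (-0.24 ± 0.07) and rose with HFD in WT mice (0.28 ± 0.07).

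Of 16 growth signalling genes, 4 fell (12.3% of all genes) and 0 rose (11.8%) with HFD in WT mice. In either direction this was near the 24.1% of all genes that passed in that comparison. In the other pairwise comparisons 0 passed by limma. In each of them 4 of the 16 had an unadjusted p under 0.05. The share of all genes was 26.8% between KO and WT mice on HFD, 5.6% on chow and 22.8% for diet in KO mice. Ddit4, an inhibitor of mTOR complex 1, fell by 1.33 and the S6 kinase gene Rps6kb2 fell by 0.32 on the log2 scale (adjusted p 0.0034 and 0.0077). Whether these differences were unlike those in KO mice was tested by the interaction, which 0 of the 16 passed. Only 0.00502% of all genes passed it, so this count cannot show that the genotypes were alike. In KO mice the Ddit4 levels on HFD lay within the range of those on chow. The Ddit4 difference between KO and WT mice on chow was -1.28, and its interaction was 1.32. For Rps6kb2 all KO levels on HFD lay below those on chow. The 77 genes of the mitochondrial ribosome, a separate particle encoded by the Mrpl and Mrps genes, are set beside the cytosolic ones for comparison. Between KO and WT mice on HFD 9 of them were higher (6.65% of all genes) and 0 lower (6.85%), with a median of 0.10 against -0.03 for the cytosolic members. On chow 0 passed and the median was 0.12, and with HFD in WT mice 1 was higher (11.8% of all genes) and 7 were lower (12.3%). No test was made of the difference between the 2 families.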

How the data were processed

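White adipose tissue RNA of 12 samples was hybridised to 1-colour Affymetrix arrays. Per the labels' protocols, RNA was labelled by the whole transcript sense target method, and the submitters' processing notes name affy without a version. The sources used here do not give how background was corrected or how probes were summarized and normalized. Log2 intensities for 34760 probe sets were deposited by the authors and used unchanged. The log base was inferred from their range, 2.09 to 14.2. The values were not centred per gene, array medians lay between 5.78 and 5.92, and there are no detection calls, so no value was set against background. The number of arrays limits the precision.

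The platform annotation gave 21640 probe sets 1 symbol, 1321 several and 11799 none. By Entrez identifier, 21553 matched RefSeq (GRCm38.p6), with 0 symbols changed. For 954 genes with several probe sets the one with the highest mean was used. limma 3.58.1 (R 4.3.3) fitted the 4 group means to all arrays (8 residual degrees of freedom) with eBayes, two-sided tests and Benjamini-Hochberg adjustment over 19937 genes, and was tested on simulated data. Members named are those of lists by role, those passing or with the smallest p in each comparison, and those with the highest or lowest mean or the largest SD. From the other lists, the 2 passing genes with the smallest p in each direction are named. Alternatives changed the samples fitted, a block for replicate number, array weights, normalization, a minimum mean, the moderation of the variance and the probe set of a gene. The members and lists were chosen with earlier results of these data known.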

Additional observations from a re-analysis of the deposited data

Results flagged for a closer look

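Probe sets that list a ribosomal protein symbol among several symbols cannot be given to 1 gene and were not used above. Tested over all probe sets of the array, 2 of these 209 were higher and 1 was lower in KO than in WT mice on HFD, against 6.46% of all 34760 probe sets in either direction. With HFD against chow 8 were higher and 0 lower in WT mice, against 13.97%, and 3 were higher and 1 was lower in KO mice, against 2.41%. These shares of the 209 were 1.44%, 3.83% and 1.91%. One of them, which lists 6 symbols, had log2 levels of 10.44, 10.32 and 10.19 in KO mice on HFD, against 5.5, 4.86 and 3.49 in WT mice on HFD. On chow it had 4.52, 4.83 and 4.74 in KO mice, against 5.59, 4.44 and 4.41 in WT mice. It was 5.70 ± 0.44 higher in KO than in WT mice on HFD (SE, n = 3 arrays each, limma adjusted p 0.0013) and 5.62 ± 0.44 higher with HFD than with chow in KO mice. Its interaction of genotype and diet was 5.82 ± 0.63 (adjusted p 0.023 over all probe sets). No named member differed by as much, and the probe set is left without a gene name.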

How the results depend on the processing

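The differences of Rpl12 and Rplp2 that passed kept their sign under each alternative that gave them a value. Medians of the members near 0 changed sign under some, and probe sets of the same gene differed in sign for 20 to 25 of 38 members. The count of members that passed between KO and WT mice on HFD was 1, and it was 0 when only the 2 groups compared were fitted, with genes of mean over 6, with all probe sets adjusted together and with members whose probe set lists a RefSeq transcript, 6 with array weights, 3 with the lowest-mean probe set and 0 to 1 with 1 array left out. For HFD against chow in WT mice the count was 1, and it was 0 with only the compared groups, with trend and robust moderation, with all probe sets together and with RefSeq members, 14 with array weights (7 higher and 7 lower), 3 with arrays shifted to the same median (all higher, with Rplp2 at -0.18 no longer among them), 3 with the mean of all probe sets, 4 with the lowest-mean probe set and 0 to 1 with 1 array left out. Shifting the arrays moved the median of the members there to 0.14. For HFD against chow in KO mice the count was 1, and it was 2 with array weights, 3 with shifted arrays, 0 with genes of mean over 6, 2 with the lowest-mean probe set, 0 with RefSeq members and 1 to 2 with 1 array left out. The interaction gave 0, 1 with array weights and 0 to 1 with 1 array left out. Array weights, whose estimation did not converge fully, gave 7648 of all genes between KO and WT mice on HFD and fitting only the groups compared gave 4, against 2691 as reported. The fits on RefSeq members and on all probe sets were chosen after seeing the data. Rpl12 and Rplp2 lie on dim probe sets with no detection call, so their distance from background is unknown. With replicate number as a block, 1 member passed between KO and WT mice on HFD, 0 for HFD against chow in WT mice and 1 in KO mice. Deviations of same-numbered arrays correlated at r = -0.41 to 0.38, with 4 of 18 pairs over 0.1. Those of arrays with different numbers ran from -0.48 to 0.43. With 3 arrays in each group, these values cannot decide whether the numbers pair the samples.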
